A study of Mus musculus with 12 samples.

Results

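The transcripts of 49 ribosome biogenesis factors were followed in tumourspheres of 3 mouse mammary spindloid tumour cell lines treated with inhibitors of the receptor tyrosine kinases Met and FGFR. The factors were chosen by gene symbol, from what is known of their function, while earlier results of these data were known. Every symbol matched a row of the count table, which holds 55573 genes. All 49 passed the filter on low counts that left 13836 genes to test, and the lowest count of any factor in any library was 247. Each line, A1005, A1129 and A1471, carried the genotype MMTV-Metmt;Trp53fl/+;Cre, in control and treated libraries alike, so the mutant Met transgene, the conditional Trp53 allele and Cre were common to every group. MMTV is a viral promoter used to drive transgenes in mammary epithelium, and spindloid names the spindle-shaped, mesenchymal pathology of the tumours. The lines are independent but each stands for 1 tumour, so n = 3 lines per treatment is the replication. The treatments lasted 24 h and were DMSO (the solvent control), Crizotinib (a Met inhibitor), PD173074 (an FGFR inhibitor) or both inhibitors, labelled Combo, and the study used 1 µM of each inhibitor on tumourspheres. The comparisons ask what happens to gene expression in these cells when Met, FGFR or both are inhibited.

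Ribosome biogenesis begins in the nucleolus, where RNA polymerase I transcribes the ribosomal RNA precursor. Small nucleolar ribonucleoproteins modify the precursor, those of the box C/D class by methylation of the ribose and those of the box H/ACA class by pseudouridylation, while large sets of assembly factors fold and cut it and add ribosomal proteins to form the small and the large subunit. The process takes much of the energy of a growing cell, and Myc, a transcription factor downstream of many growth factor pathways, is known to bind the E-box CACGTG and to raise the transcription of many of these factors. By role, 7 of the 49 serve RNA polymerase I transcription, 4 are nucleolar scaffold and chaperone proteins, 4 belong to box C/D particles, 4 to box H/ACA particles, 15 to small subunit assembly and 15 to large subunit assembly.

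The E-box windows in the promoters of the factors are shown because the motif is the textbook binding site of Myc and was not used to choose the genes. The promoters were those of RefSeq on build GRCm38.p6, from 250 bases before to 50 bases after the transcription start, and 44 of the 49 factors had an entry (none for Npm1, Fbl, Rrp12, Bop1 and Rrs1). The letters CACGTG read the same on both strands, so a single search covers both. These 44 factors had 53 promoter entries, since 4 factors had more than 1, and a gene was counted if any entry held the motif. Of the 44 factors, 10 held the motif (22.7%), against 11.7% of the 10035 tested genes with a promoter and 8.09% of 27025 genes with a promoter in all. In the 100 bases just before the start, 3 of the 44 held it (6.82%), against 5.59% of tested genes and 3.7% of all genes. For 36 of the 53 entries, bases 11 to 40 after the start matched the beginning of a GENCODE transcript of the gene. Mybbp1a, Imp4, Ltv1 and Nop2 had an entry without such a match, so their positions rest on the RefSeq start. The windows below run 5′ to 3′ on the strand of the gene, with the E-box in capitals, and each name gives the position of its first base, counted from the start as base 1, with the place and strand of the window.
Rrn3 at -215, chr16:13780472-13780501, forward strand: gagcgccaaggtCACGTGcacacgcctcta
Rrn3 at -48, chr16:13780639-13780668, forward strand: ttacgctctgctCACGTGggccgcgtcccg
Imp4 at -121, chr1:34439696-34439725, forward strand: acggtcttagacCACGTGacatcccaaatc
Nop2 at -60, chr6:125131811-125131840, forward strand: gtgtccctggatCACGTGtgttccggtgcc
Utp18 at -20, chr11:93885769-93885798, reverse strand: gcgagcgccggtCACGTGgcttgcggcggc
Pes1 at 3, chr11:3963965-3963994, forward strand: ccctaggcagggCACGTGcgggaggaagta
Wdr43 at 18, chr17:71616220-71616249, forward strand: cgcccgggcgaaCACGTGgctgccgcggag
Tsr1 at 25, chr11:74898092-74898121, forward strand: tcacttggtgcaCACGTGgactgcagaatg
Ltv1 at 29, chr10:13193092-13193121, reverse strand: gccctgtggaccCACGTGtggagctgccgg
Utp20 at 38, chr10:88826765-88826789, reverse strand: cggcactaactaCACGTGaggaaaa
Mybbp1a at 41, chr11:72441355-72441376, forward strand: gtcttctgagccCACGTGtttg

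Rrn3, the initiation factor that brings RNA polymerase I to the ribosomal DNA promoter, was the factor with 2 such sites. Its sequence from 250 bases before the start to the base before it lies at chr16:13780449-13780698 on the forward strand, and its E-boxes are again in capitals.
Rrn3 upstream: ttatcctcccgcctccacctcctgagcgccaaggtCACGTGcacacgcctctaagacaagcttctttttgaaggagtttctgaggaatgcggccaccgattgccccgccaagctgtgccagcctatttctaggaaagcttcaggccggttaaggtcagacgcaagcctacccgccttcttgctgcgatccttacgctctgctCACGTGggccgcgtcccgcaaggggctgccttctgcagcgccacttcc
A match to the letters is a description of the sequence and not evidence of binding.

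The libraries held 13031492 to 17750476 counts, and no pair of the 66 agreed within sampling noise (lowest chi-square per degree of freedom 4.90). Of the mesenchymal markers, Vim (30314 to 49234 counts), Fn1, Twist1, Zeb1, Zeb2 and S100a4 were read in every library, while Cdh2 had at most 6 counts. Of the epithelial markers, Krt5 was at 0 throughout, Cdh1, Krt14 and Epcam had at most 9, 11 and 29 counts, and the simple-epithelial keratins Krt8 and Krt18 had 17 to 611 and 53 to 748 counts. Summed markers overlapped between DMSO and Combo for the mesenchymal (3310 to 5470 against 2645 to 8897 CPM, counts scaled to the library total), epithelial (16.1 to 39.6 against 7.32 to 42.2 CPM) and immune lists (4.41 to 31.3 against 8.45 to 42.2 CPM), endothelial markers stayed at or under 0.752 CPM, and the adipocyte markers Adipoq and Lep were at 0. Single markers did differ between Combo and DMSO. Twist1, a mesenchymal transcription factor, fell in all 3 lines (log2 fold change -1.09, SE 0.15, edgeR adjusted p = 0.00156). When libraries were compared within lines (line as a block), Krt18 was also lower (log2 difference -0.76, -0.94 and -1.30 in A1005, A1129 and A1471, edgeR adjusted p = 2.25e-04) and the mesenchymal Zeb2 and the macrophage marker Cd68 were higher (log2 fold change 0.51 and 0.82, edgeR adjusted p = 0.0133 and 0.00603), and their part in the results below was not tested. The immune marker Ptprc had 174 to 339 counts in the A1005 libraries, in every treatment, and at most 2 elsewhere, and its part in the difference between lines was not tested.

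In tumourspheres given DMSO alone the factors were abundant transcripts. On a per-length scale (RPKM, CPM divided by the kilobases of annotated exon), the median factor stood at 33.9 in the DMSO libraries against 5.59 for all tested genes, and 49 of 49 factors lay above that median. Npm1, a nucleolar chaperone, was highest with 905 ± 228 RPKM (SD, n = 3), above Ncl in every library. Ncl, or nucleolin, an abundant nucleolar RNA-binding protein, had 226 ± 63.5 RPKM, and Nhp2, a core protein of box H/ACA particles, had 169 ± 58.3 RPKM. Their ranges over the DMSO libraries overlapped, although Ncl was the higher of the pair in every library. At the low end stood Imp4, of the small subunit processome, with 9.81 ± 1.92 RPKM, the polymerase subunit Polr1e with 8.21 ± 1.20 RPKM and the large subunit factor Wdr12 with 6.96 ± 1.20 RPKM, with ranges that overlapped between neighbours. These levels depend on the summed exon length of the annotation, which counts all annotated exons of a gene.

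The lines were not alike in the absence of an inhibitor. In DMSO the 49 factors took 0.877%, 1.27% and 1.37% of all counts in A1005, A1129 and A1471. A1005 was the lowest line for 40 of the 49 factors in DMSO, for 36 in Crizotinib and for 38 in PD173074. The SD of log2 CPM (with a prior count of 2) between the 3 DMSO libraries had a median of 0.334 over the factors and 0.391 over all tested genes. Tests that ignore the line measure a treatment against this spread between lines, whereas a fit with the cell line as a block compares libraries of the same line.

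Inhibition of both receptors was accompanied by a lower level of nearly the whole set. The factors took 0.600%, 0.587% and 0.719% of counts in the Combo libraries of A1005, A1129 and A1471, a mean of 0.635 ± 0.0725% against 1.17 ± 0.261% in DMSO (SD, n = 3). Of the 49 factors, 26 fell at an adjusted p under 0.05 in the edgeR quasi-likelihood fit without a block and 0 rose, where 8.28% of all tested genes were called lower and 6.1% higher. With the cell line as a block, 47 fell and 0 rose, against 26.2% of all genes called lower and 28.6% higher. The median log2 fold change of the factors was -0.90, with a range of -1.42 to 0.03, beside 0.02 over all tested genes. In 47 of 49 factors Combo lay below DMSO in each of the 3 lines, as it did in 32.5% of all tested genes. The 2 exceptions were Polr1c and Ubtf, which were also the only factors not called with the block. All 3 Combo libraries lay below all 3 DMSO libraries for 39 of the 49 factors, against 16.1% of tested genes. Without the block, leaving out A1129 or A1471 left 0 factors called and leaving out A1005 left 33. With the block 47, 44 and 42 were called without A1005, A1129 and A1471. Fits without a line have fewer libraries, so the number called can change for any gene. Over all tested genes it also varied widely between the fits that left out a line without the block. These counts are therefore not particular to the factors. In bulk RNA of this kind, fewer cells of a type and less RNA per cell cannot be told apart, and CPM values are relative to the other transcripts of a library.

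**Figure D1:**
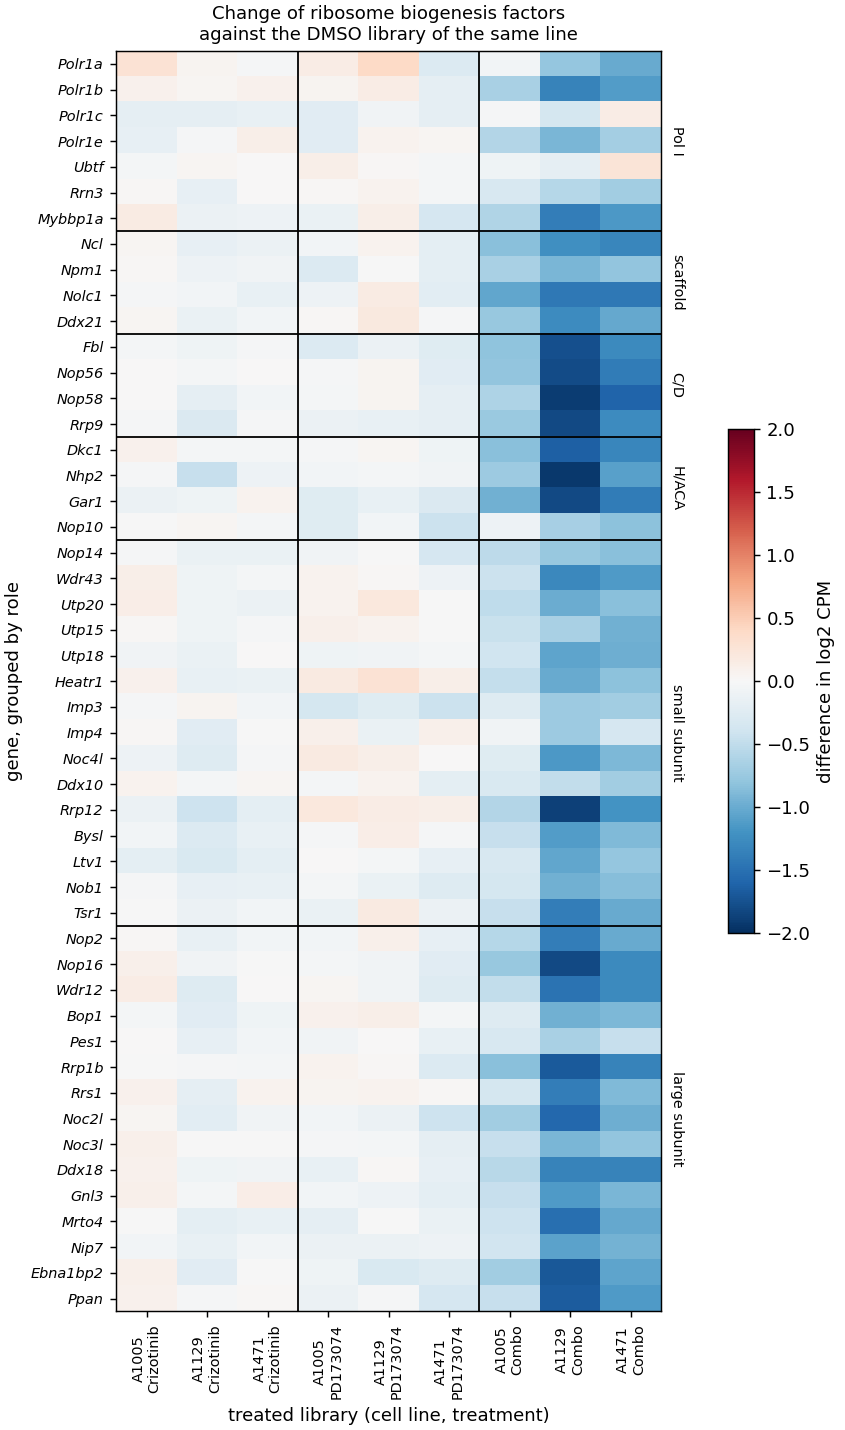
Difference in log2 CPM between each treated library and the DMSO library of the same line (colour), for the 49 factors grouped by role (rows) in 9 treated libraries (columns). The Crizotinib and PD173074 columns are pale, and the Combo columns are blue for 47 factors in all 3 lines, palest in A1005 and darkest in A1129 for most rows.

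**Figure D2:**
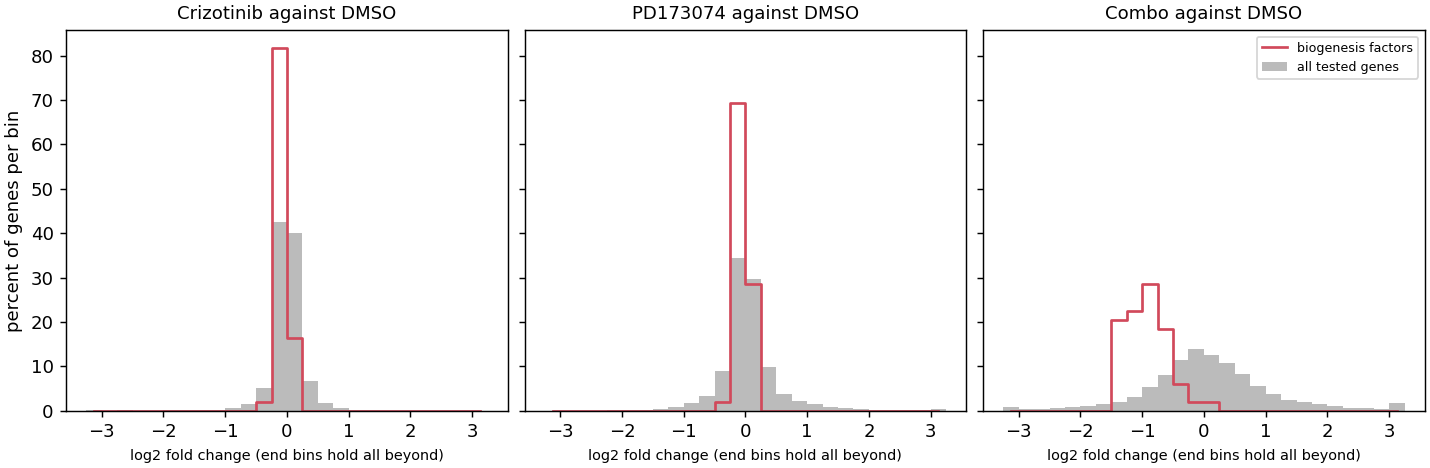
Percent of the 49 factors (line) and of all 13836 tested genes (grey) in each bin of fitted log2 fold change against DMSO, for Crizotinib, PD173074 and Combo, with all genes beyond the ends of the axis in the last bins. With both inhibitors the fullest bin of the factors runs from -1 to -0.75 and holds 28.6% of them against 5.28% of all genes.

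Transcription of the ribosomal RNA genes was represented by 7 factors. Of these, 4 fell without the block and 5 with it, against 8.28% and 26.2% of all tested genes (median log2 fold change -0.66). Values are given throughout as CPM after TMM normalisation, which rescales library totals, in the order A1005, A1129 and A1471, and gene positions are those of GENCODE on build mm10. Polr1b (chr2:129100995-129126594), the second-largest subunit of RNA polymerase I, was read at 71.2, 87.5 and 90.8 in DMSO, 75.3, 89.9 and 96.0 in Crizotinib, 73.7, 96.7 and 79.9 in PD173074 and 45.2, 34.7 and 41.6 in Combo. The Combo libraries lay below all 9 others, and Polr1b fell 2.05-fold against DMSO (log2 fold change -1.04, SE 0.17, edgeR adjusted p = 0.00384), the lowest adjusted p of the set. Polr1a (chr6:71909053-71984935), the largest and catalytic subunit, had 140.4, 211 and 273 in DMSO, 171, 219 and 269 in Crizotinib, 156, 277 and 226 in PD173074 and 135, 124 and 136 in Combo. In A1005 it was level between DMSO and Combo while the other lines were lower, and the call depended on the block (log2 fold change -0.66, SE 0.28, edgeR adjusted p = 0.145, and 0.0166 with the block). Rrn3, the initiation factor with 2 E-boxes, had 126, 148 and 127 in DMSO, 128, 132 and 128 in Crizotinib, 128, 156 and 124 in PD173074 and 101, 99.6 and 78.4 in Combo. Its fall was modest, 1.44-fold, and the DMSO and Combo libraries did not overlap (log2 fold change -0.52, SE 0.15, edgeR adjusted p = 0.0393).

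The remaining polymerase I genes split. Mybbp1a, a nucleolar protein that takes part in precursor transcription and processing, and Polr1e, a polymerase subunit, also fell, with log2 fold changes of -1.09 and -0.74. Ubtf (chr11:102304560-102319742), which binds along the ribosomal RNA genes and keeps them open, had 233, 201 and 265 in DMSO, 226, 206 and 267 in Crizotinib, 253, 204 and 257 in PD173074 and 219, 177 and 318 in Combo. It was lower in 2 lines and higher in A1471, and no difference was detected (log2 fold change 0.03, SE 0.22, edgeR adjusted p = 0.957). Polr1c (chr17:46243920-46248054), a subunit that RNA polymerase I shares with RNA polymerase III, had 72.6, 65.0 and 68.4 in DMSO, 63.9, 57.4 and 61.7 in Crizotinib, 62.1, 62.2 and 60.2 in PD173074 and 71.2, 50.8 and 76.0 in Combo. Its value was lower in A1129, near level in A1005 and higher in A1471 (log2 fold change -0.06, SE 0.15, edgeR adjusted p = 0.859). Leaving out A1129 turned the sign of Polr1c (0.07) and leaving out A1471 turned that of Ubtf (-0.12), neither past the threshold.

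All 4 transcripts for scaffold and chaperone proteins fell with the block and 2 of them without it (median -1.10). Over all tested genes, 26.2% and 8.28% were called lower. All Combo libraries of these 4 lay below all DMSO libraries, as in 16.1% of tested genes. Ncl (chr1:86344719-86359400) was read at 1657, 2305 and 2951 in DMSO, 1711, 2061 and 2732 in Crizotinib, 1594, 2431 and 2577 in PD173074 and 926, 981 and 1189 in Combo. The lines, which differed in DMSO, came close to each other in Combo, and Ncl fell 2.23-fold (log2 fold change -1.16, SE 0.27, edgeR adjusted p = 0.0209). Npm1 (chr11:33152287-33163206) had 1791, 2445 and 3003 in DMSO, 1824, 2276 and 2866 in Crizotinib, 1488, 2427 and 2613 in PD173074 and 1141, 1293 and 1734 in Combo. The order of the lines was the same in all 4 treatments, and the difference passed only with the block (log2 fold change -0.80, SE 0.29, edgeR adjusted p = 0.0959, and 2.98e-04 with the block). Nolc1 (chr19:46075863-46085530), a chaperone that escorts small nucleolar ribonucleoproteins, had 191, 414 and 410.3 in DMSO, 189, 399 and 370.3 in Crizotinib, 178, 463 and 353 in PD173074 and 93.3, 154 and 152 in Combo. A1005 held less of it than the other lines under every treatment, and the unblocked fit missed the threshold while the blocked one gave the lowest adjusted p of the 49 (log2 fold change -1.34, SE 0.44, edgeR adjusted p = 0.0697, and 2.20e-05 with the block). Ddx21, an RNA helicase that acts in precursor transcription and processing, had 245, 384 and 326 in DMSO, 251, 351 and 313 in Crizotinib, 250.1, 439.5 and 321 in PD173074 and 145, 161 and 161 in Combo. It fell 2.04-fold, to nearly the same level in each line (log2 fold change -1.03, SE 0.24, edgeR adjusted p = 0.0190).

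**Figure D3:**
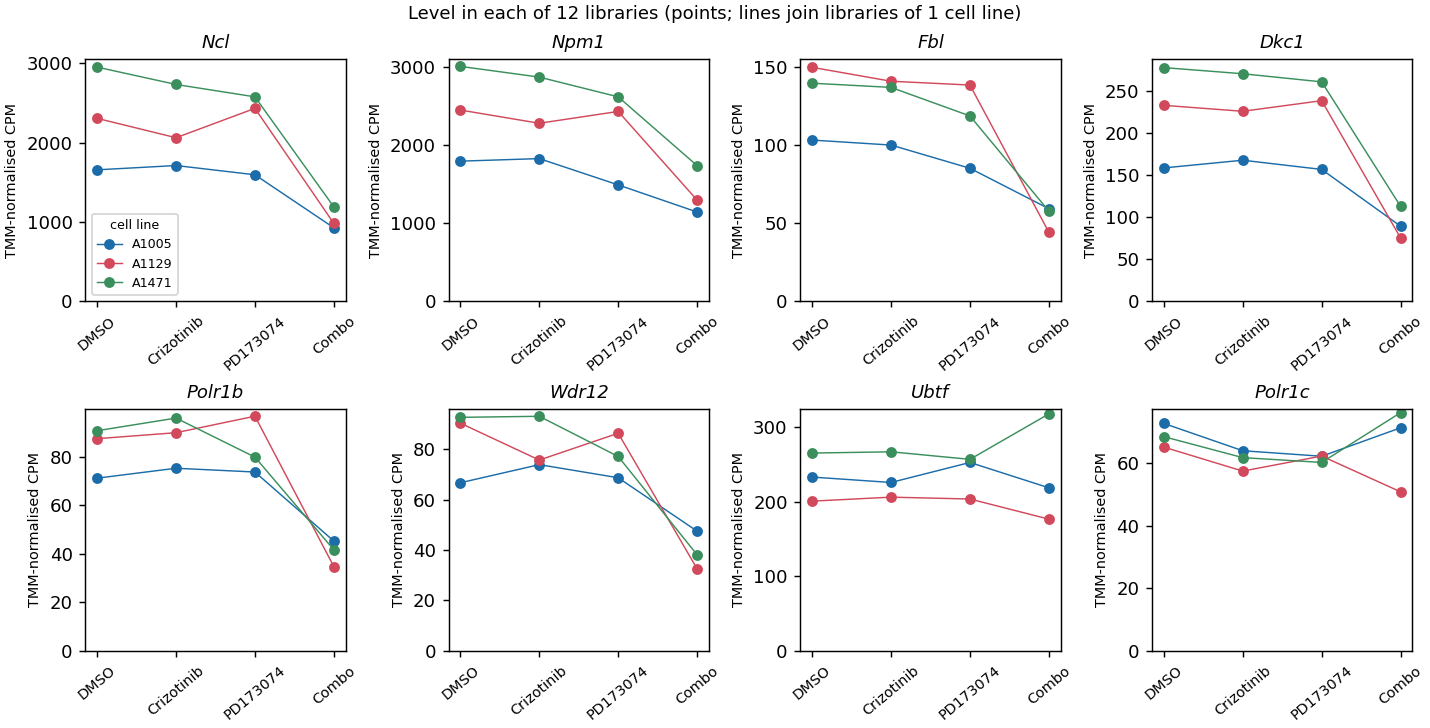
TMM-normalised CPM of 8 factors (y axis, from 0) in each of the 12 libraries by treatment (x axis), with lines joining the libraries of a cell line. Ncl, Npm1, Fbl, Dkc1, Polr1b and Wdr12 are lower in Combo than in DMSO in every line, while Ubtf and Polr1c are higher in A1471.

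The transcripts for proteins of the box C/D particles, which guide ribose methylation, fell together in Combo (median log2 fold change -1.29). Without the block and with it 4 of 4 were called, against 8.28% and 26.2% of all tested genes. Fbl (chr7:28169710-28179269), or fibrillarin, the methyltransferase itself, had 103, 149.9 and 139.7 in DMSO, 100.1, 141 and 137 in Crizotinib, 85.2, 139 and 119 in PD173074 and 59.3, 44.2 and 57.8 in Combo. Each Combo library was below every library of the other treatments, and Fbl fell 2.43-fold (log2 fold change -1.28, SE 0.23, edgeR adjusted p = 0.00647). Nop56 (chr2:130274430-130279313), a core protein of these particles, had 261, 283 and 249 in DMSO, 262, 274 and 251 in Crizotinib, 255, 292 and 212 in PD173074 and 151, 81.8 and 94.3 in Combo. The DMSO libraries lay close together and the Combo libraries spread, with A1005 highest (log2 fold change -1.28, SE 0.22, edgeR adjusted p = 0.00518). Nop58 (chr1:59684971-59719044), its partner in the core, had 288, 369 and 409 in DMSO, 290.0, 327 and 393 in Crizotinib, 279, 384 and 362 in PD173074 and 187, 99.1 and 135 in Combo. A1005, the lowest line in DMSO, was the highest in Combo (log2 fold change -1.34, SE 0.25, edgeR adjusted p = 0.00736). Rrp9 (chr9:106475963-106485424), which binds the small nucleolar RNA at the heart of the small subunit processome, had 62.6, 110.0 and 125 in DMSO, 61.7, 90.01 and 124 in Crizotinib, 57.5, 99.0 and 111 in PD173074 and 37.6, 31.4 and 52.6 in Combo. Its groups did not overlap, although the A1005 DMSO library stood near the highest Combo library (log2 fold change -1.29, SE 0.36, edgeR adjusted p = 0.0406).

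Of the transcripts for box H/ACA proteins, 3 of 4 fell without the block and all 4 with it (median -1.28). Over all tested genes, 8.28% and 26.2% were called lower. Dkc1 (chrX:75095854-75109777), or dyskerin, the pseudouridine synthase, had 159, 233 and 278 in DMSO, 168, 226 and 271 in Crizotinib, 157, 239 and 261 in PD173074 and 89.2, 75.2 and 113 in Combo. Every Combo library lay below every other library, and Dkc1 fell 2.41-fold (log2 fold change -1.27, SE 0.28, edgeR adjusted p = 0.0167). Gar1 (chr3:129824912-129831396), a further core protein of these particles, had 89.8, 82.1 and 107 in DMSO, 82.7, 76.9 and 112 in Crizotinib, 76.0, 73.8 and 86.8 in PD173074 and 46.0, 23.3 and 40.5 in Combo. Its fall was 2.54-fold and the groups were well apart (log2 fold change -1.34, SE 0.25, edgeR adjusted p = 0.00716). Nhp2 also fell (log2 fold change -1.29). Nop10, the smallest of these core proteins, had 92.6, 65.4 and 56.1 in DMSO and 86.2, 41.1 and 31.7 in Combo. It barely differed in A1005, and the call came with the block (log2 fold change -0.43, SE 0.39, edgeR adjusted p = 0.528, and 0.0147 with the block).

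Small subunit assembly had 15 factors, with a median log2 fold change of -0.79. Without the block 4 fell (Wdr43, Utp18, Bysl and Ltv1) and with it 15, against 8.28% and 26.2% of all tested genes. Utp20 (chr10:88746607-88826804), a large scaffold protein of the processome that packs the small subunit precursor, had 88.6, 156 and 119 in DMSO, 97.1, 147 and 109.9 in Crizotinib, 92.8, 181 and 118 in PD173074 and 62.1, 78.3 and 66.9 in Combo. All Combo values were below all DMSO values, and the call came with the block (log2 fold change -0.81, SE 0.28, edgeR adjusted p = 0.0883, and 3.37e-04 with the block). Heatr1 (chr13:12395027-12440289), a processome protein also needed for polymerase I transcription, had 107, 202 and 280.1 in DMSO, 113, 181 and 256 in Crizotinib, 122, 246 and 303 in PD173074 and 77.1, 100.1 and 158 in Combo. The groups overlapped because A1005 in DMSO lay below A1471 in Combo, while each line was lower in Combo than in its own DMSO library (log2 fold change -0.81, SE 0.46, edgeR adjusted p = 0.285, and 3.91e-04 with the block). Nob1 (chr8:107412486-107425051), the endonuclease that makes the last cut of the small subunit RNA, had 59.2, 101 and 89.2 in DMSO, 58.3, 90.3 and 80.5 in Crizotinib, 57.7, 92.6 and 74.3 in PD173074 and 46.3, 51.8 and 49.6 in Combo. The Combo libraries were close together and below DMSO (log2 fold change -0.76, SE 0.25, edgeR adjusted p = 0.0678, and 6.24e-04 with the block).

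The lowest fold change of the 49, and another among the highest, also belonged to this role. Rrp12 (chr19:41862851-41896173), which helps to export and mature the small subunit, had 25.4, 116 and 68.0 in DMSO, 23.6, 87.0 and 59.1 in Crizotinib, 29.5, 128 and 73.5 in PD173074 and 16.8, 31.8 and 29.6 in Combo. Its DMSO libraries spread widely between lines, A1005 in DMSO lay below 2 of the 3 Combo libraries, and the difference passed only with the block (log2 fold change -1.42, SE 0.67, edgeR adjusted p = 0.195, and 6.61e-04 with the block). Imp4 (chr1:34439851-34449356), a processome protein, had 65.0, 94.5 and 92.2 in DMSO, 66.3, 80.4 and 91.4 in Crizotinib, 69.7, 86.4 and 98.5 in PD173074 and 62.2, 56.8 and 73.3 in Combo. It differed little in A1005 and more in A1129 (log2 fold change -0.39, SE 0.20, edgeR adjusted p = 0.235, and 0.0186 with the block). The others of this role (Nop14, Utp15, Imp3, Noc4l, Ddx10 and Tsr1) had log2 fold changes of -0.74, -0.73, -0.54, -0.79, -0.52 and -0.97, each called with the block alone. The processome proteins Wdr43 and Utp18 had -0.97 and -0.81, and Bysl and Ltv1, which act later on the maturing small subunit, had -0.84 and -0.72.

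Large subunit assembly had 15 factors as well (median -1.02). Of these, 9 fell without the block and 15 with it, against 8.28% and 26.2% of all tested genes. Bop1, Pes1 and Wdr12 form the PeBoW complex, which acts in the processing of the large subunit RNA, and their log2 fold changes ran from -1.08 (Wdr12) to -0.47 (Pes1). Wdr12 (chr1:60069785-60098645) had 66.7, 90.3 and 92.6 in DMSO, 73.9, 75.7 and 93.0 in Crizotinib, 68.7, 86.3 and 77.1 in PD173074 and 47.5, 32.5 and 38.1 in Combo. It fell 2.11-fold, and its Combo libraries lay below all others (log2 fold change -1.08, SE 0.19, edgeR adjusted p = 0.00570). Bop1 (chr15:76452989-76477277) had 131, 119 and 159 in DMSO, 127, 101 and 150.1 in Crizotinib, 139, 128 and 155 in PD173074 and 109, 60.5 and 85.3 in Combo. Its DMSO and Combo values did not overlap, and the call came with the block (log2 fold change -0.68, SE 0.23, edgeR adjusted p = 0.0784, and 0.00216 with the block). Pes1 (chr11:3963975-3980004) had 206, 229 and 311 in DMSO, 207, 204 and 299 in Crizotinib, 196, 229.8 and 280.2 in PD173074 and 165, 146 and 226 in Combo. Its change was the smallest of this role and its groups overlapped, though each line was lower (log2 fold change -0.47, SE 0.24, edgeR adjusted p = 0.235, and 0.00198 with the block). Whether the members of the complex differed from each other was not tested.

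Gnl3 (chr14:31012433-31019152), or nucleostemin, a nucleolar GTPase known from stem and tumour cells, had 121, 281 and 186 in DMSO, 129.7, 273 and 204 in Crizotinib, 116, 261 and 161 in PD173074 and 88.1, 127 and 98.3 in Combo. A1005 in DMSO lay just below A1129 in Combo, so the groups overlapped (log2 fold change -0.90, SE 0.39, edgeR adjusted p = 0.159, and 4.60e-04 with the block). Among the rest, Rrp1b, Ebna1bp2, Ddx18, Ppan, Noc2l, Nop2, Mrto4 and Rrs1 fell without the block, from -1.29 (Rrp1b) to -0.87 (Rrs1) on the log2 scale. Nop2, a methyltransferase of the large subunit RNA, stood among them with -1.02. Nop16, Nip7 and Noc3l, with -1.18, -0.84 and -0.76, were called with the block alone.

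**Figure D4:**
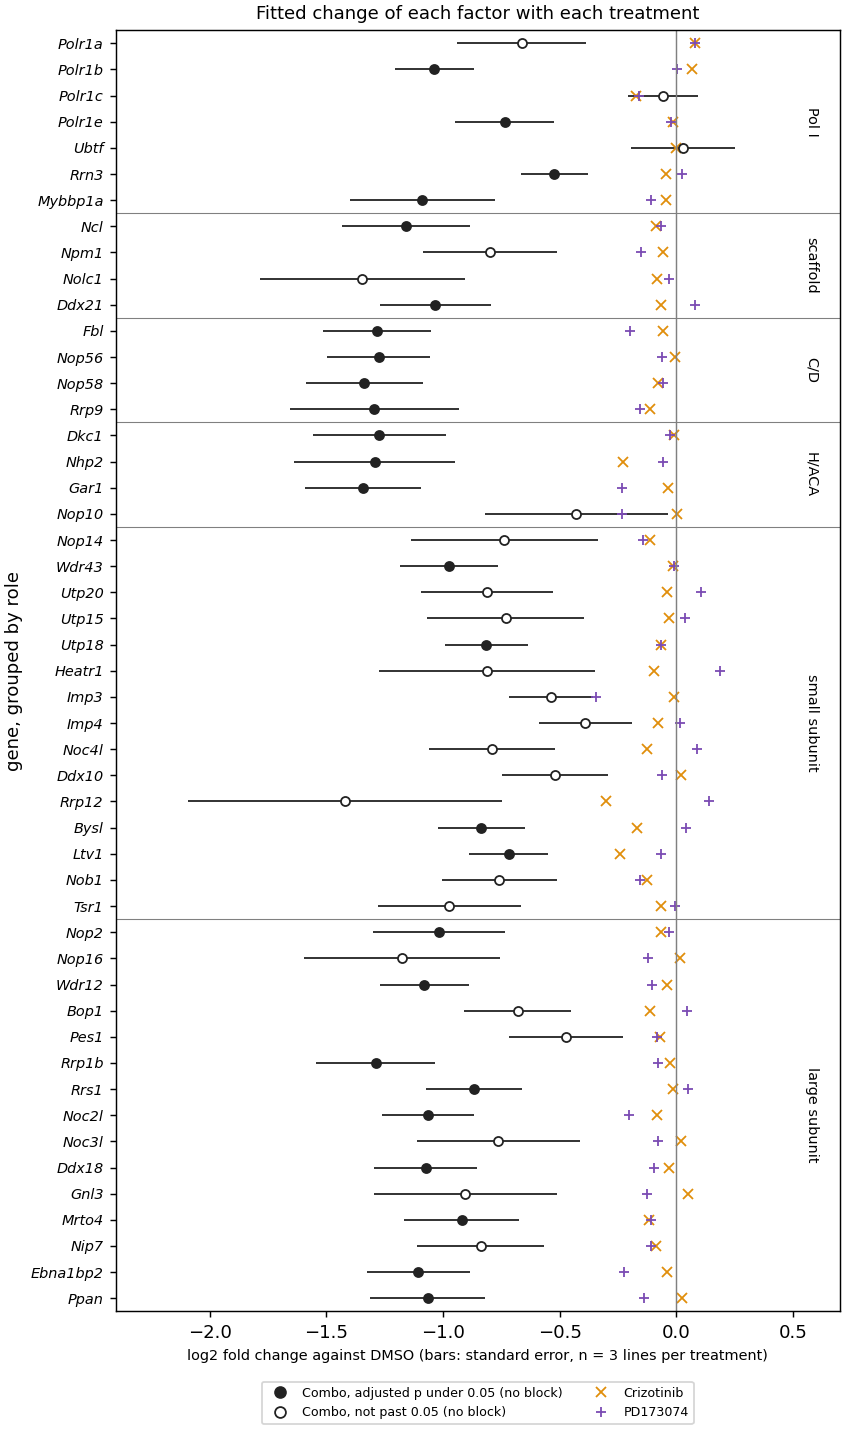
Fitted log2 fold change against DMSO (x axis) of each factor (rows, by role), as circles with standard error for Combo and as crosses and plus signs for Crizotinib and PD173074 (n = 3 lines per treatment). Filled circles mark the 26 factors past an adjusted p of 0.05 without the block, and the single inhibitors sit between -0.34 and 0.19.

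No factor passed the test with either inhibitor alone. With Crizotinib, 0 of 49 factors were called by edgeR with or without the block or by DESeq2, where 0% of all genes were called lower without the block and 0% with it. In either edgeR fit 0 factors had an unadjusted p under 0.05, beside 18 of the 13836 tested genes without the block and 258 with it. The median log2 fold change was -0.06 beside -0.00083 over all genes, with 41 of 49 below 0 and a range of -0.30 (Rrp12) to 0.08 (Polr1a). With PD173074, 0 of 49 factors were called by edgeR with or without the block or by DESeq2, against 0% of all genes called lower without the block and 0.52% with it. Among the factors, unadjusted p-values under 0.05 numbered 0 without the block and 1 with it. Over the 13836 tested genes they numbered 307 and 2175. The 1 factor was Imp3, a processome protein, which stood lowest, at -0.34 on the log2 scale. Its adjusted p in edgeR was 0.198 once the line was blocked. The PD173074 median was -0.07, with 35 of 49 below 0 and Heatr1 highest at 0.19. The standard errors with the block, from 0.09 (Pes1) to 0.22 (Nop58) with Crizotinib, set the size of change that 3 lines could show.

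Against the single inhibitors the combination was lower too. Compared with Crizotinib, 18 factors were lower and 0 higher without the block and 46 were lower with it, against 7.78% and 26% of all genes (median -0.85). Polr1c, Ubtf and Imp4 were those not called with the block. Compared with PD173074, 15 were lower and 0 higher without the block and 45 with it, against 3.93% and 20.2% of all genes (median -0.88), the others being Polr1c, Ubtf, Nop10 and Imp3. Nolc1 had -1.26 against Crizotinib and -1.31 against PD173074, and Polr1b had -1.10 and -1.04. Without the block, leaving out A1129 or A1471 ended every call among the factors in both comparisons. Leaving out A1005 gave 28 against Crizotinib and 19 against PD173074. The calls over all genes in these fits are not given here. These comparisons share the Combo libraries with the comparison against DMSO and are not independent of it.

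Whether the combination lay below the added effects of Crizotinib and PD173074 was tested as its own contrast, here called the departure, on the log2 scale. The sum of the single changes had a median of -0.12 over the factors, whereas the combination had -0.90, and the departure lay below 0 for 47 of 49 (median -0.84). Without the block, edgeR called 0 factors, beside 0.911% of all genes called lower. In that fit 21 factors had an unadjusted p under 0.05, beside 1250 of the 13836 tested genes. DESeq2 called 2 factors. With the block, 35 were called lower and 0 higher, against 10.7% of all genes. The lowest adjusted p was that of Nolc1 (departure -1.17, SE 0.17, edgeR adjusted p = 0.00172 with the block), followed by Ddx21 (-1.02, SE 0.17, edgeR adjusted p = 0.00354) and Dkc1 (-1.21, SE 0.20, edgeR adjusted p = 0.00425). Those not called were Polr1a, Polr1c, Ubtf, Nop10, Imp3, Imp4, Noc4l, Ltv1, Nob1, Bop1, Pes1, Mrto4, Nip7 and Ppan. The count depended on the libraries kept, since the blocked fit called 36 without A1005 but 3 without A1129 and 1 without A1471. Leaving out a line also leaves fewer libraries, and the part of this in the counts was not tested. The calls over all genes in the fits without a line are not given here.

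The lines differed in how far the factors fell. The median difference between Combo and DMSO of the same line was -0.47 in A1005 (1.39-fold lower), -1.23 in A1129 (2.35-fold) and -0.98 in A1471 (1.98-fold). A1005 had the smallest fall for 47 of 49 factors (95.9%) and A1129 the largest for 40 (81.6%). Over all tested genes, the difference was highest in A1005 for 35.5% and lowest in A1129 for 34.5%. Over the 1146 genes called lower in Combo, A1005 had the smallest fall in 63.9% and A1129 the largest in 38.2%, with medians of -0.95, -1.33 and -1.37 in the order of lines. In the A1005, A1129 and A1471 lines, Nop58 differed by -0.62, -1.89 and -1.60, Nhp2 by -0.72, -1.93 and -1.09 and Ncl by -0.84, -1.23 and -1.31 on the log2 scale. A1005, the lowest line for 40 factors in DMSO, was the highest for 20 and the lowest for 14 in Combo, whereas A1129 was the lowest for 31. The DMSO library enters both the level without an inhibitor and the fall, so the 2 are not independent. With 1 library per line and treatment, these differences between lines have no replicate of their own and were not tested.

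**Figure D5:**
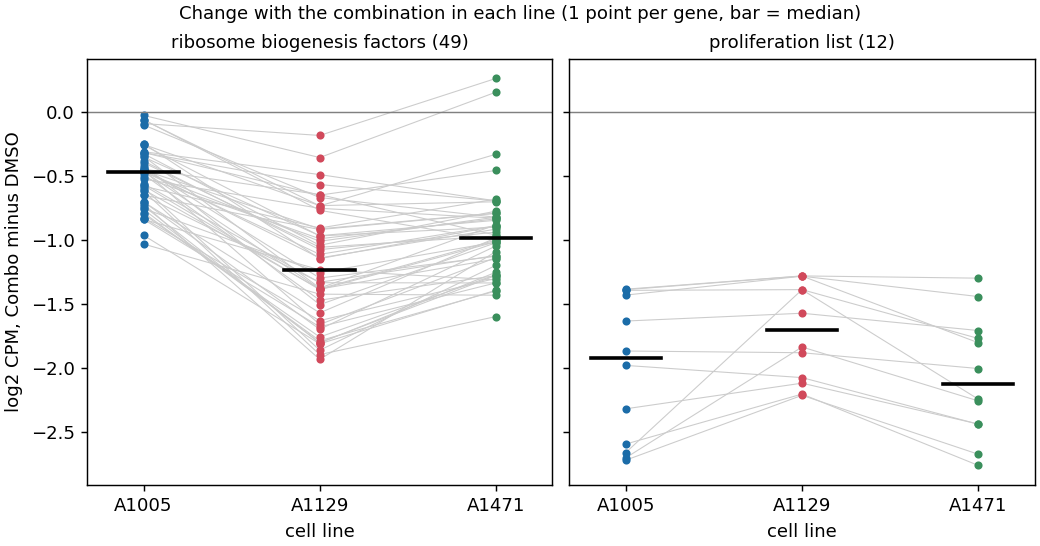
Difference in log2 CPM between Combo and DMSO of the same line (y axis) for each of the 49 factors and for 12 proliferation genes (points, joined per gene) in the 3 cell lines (x axis), with bars at the medians. The factors' medians are -0.47, -1.23 and -0.98, and those of the proliferation genes are -1.92, -1.70 and -2.12.

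Changes in other gene groups accompanied that of the factors, and their part in it was not tested. Over all tested genes, 8.28% were called lower in Combo without the block and 26.2% with it. Of 12 genes of DNA replication and the cell cycle (among them Mki67, Pcna and Cdk1), 11 fell without the block and 12 with it (median -1.92). Their summed level was 838 to 1147 CPM in Combo against 3490 to 4636 in DMSO, 3448 to 4240 in Crizotinib and 3191 to 3784 in PD173074. Among these 12, A1005 had the smallest fall for 2 and A1129 the largest for 0. The 6 feedback genes of the ERK pathway, Spry2, Spry4, Dusp4, Dusp6, Etv4 and Etv5, which report on signalling below both receptors, all fell in Combo. Summed, they stood at 544 to 720 CPM in DMSO, 589 to 815 in Crizotinib, 230.0 to 336 in PD173074 and 23.6 to 82.3 in Combo. Among these 6, A1005 had the smallest fall for 5 and A1129 the largest for 3, with medians of -4.39, -5.04 and -5.00 in the order of lines. Of 5 common reference genes (Actb, Gapdh, Hprt, Tbp and Ppia), 1 fell without the block and 2 with it (median -0.37). The 1 called without the block was Hprt (log2 fold change -0.86, SE 0.21, edgeR adjusted p = 0.0270).

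Myc itself was counted at 5160, 8197 and 8501 reads in DMSO, 7018, 8705 and 8986 in Crizotinib, 5169, 6004 and 7796 in PD173074 and 3907, 3014 and 5957 in Combo, in A1005, A1129 and A1471. These are raw counts, not scaled to the library totals. Scaled, Myc had 189 to 449 CPM in Combo and 403 to 587 CPM in DMSO. The Combo and DMSO ranges of Myc overlapped, and it was called with the block alone (log2 fold change -0.84, SE 0.34, edgeR adjusted p = 0.131, and 0.00243 with the block). By line, Myc differed by -0.89, -1.51 and -0.39, beside medians of -0.47, -1.23 and -0.98 for the factors. The difference was largest in A1129 for both, and smallest in A1471 for Myc and in A1005 for the factors. Each value rests on 1 library per line and treatment, and the part of Myc in the change of the factors was not tested. Without the block 6.1% of all tested genes were called higher in Combo. Of the 6 tested genes of the Myc network, 2 were called in that fit, and both rose. These were Mxd1 and Mnt, which pair with Max and oppose Myc, with log2 fold changes of 0.86 and 0.69 (edgeR adjusted p = 0.0300 and 0.00712). With the block, Mycl, a paralogue of Myc, was also called higher (edgeR adjusted p = 0.00144), at low counts of 0, 21 and 8 in DMSO and 11, 65 and 80 in Combo. The 10 factors with an E-box had a median of -0.81 (range -1.09 to -0.39, 6 called lower without the block). The 34 with a promoter that lacked it had -0.98 (18 called), where 8.28% of all tested genes were called lower. The difference between the medians of the 10 and the 34 was not tested.

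The wider pathway was described by 113 further biogenesis genes, of which 112 were tested. These genes were listed by role from general knowledge, also while earlier results of these data were known. In Combo, 41 of them fell and 0 rose without the block, and 86 fell and 2 rose with it (median -0.70), beside 8.28% of all tested genes called lower and 6.1% higher without the block and 26.2% and 28.6% with it. All Combo libraries lay below all DMSO libraries for 67 of the 112, against 16.1% of tested genes. Among these, 1 of 9 polymerase I genes fell without the block, a share near that of all tested genes (median -0.45). Calls were made for 5 of 9 snoRNP core and assembly genes (-0.77), 13 of 37 small subunit genes (-0.67), 14 of 36 large subunit genes (-0.71), 3 of 8 export and cytoplasmic maturation genes (-0.60) and 5 of 13 exosome and nuclease genes (-0.98). The counts of single genes below are raw, in the same order of lines, whereas the log2 fold changes take the library totals into account. Exosc8, a subunit of the RNA exosome that trims precursor ends, was lowest, with 1375, 2049 and 2040 counts in DMSO, 1419, 1824 and 1694 in Crizotinib, 1535, 1534 and 1327 in PD173074 and 645, 437 and 488 in Combo. Its Combo libraries lay below all others (log2 fold change -1.94, SE 0.17, edgeR adjusted p = 1.80e-04). Ruvbl2, an ATPase that helps to assemble box C/D particles, had 2088, 2787 and 2646 counts in DMSO, 2202, 2375 and 2391 in Crizotinib, 2120, 2214 and 1885 in PD173074 and 1230, 827 and 854 in Combo, again lowest in Combo (log2 fold change -1.52, SE 0.15, edgeR adjusted p = 2.80e-04). A further exosome subunit, Exosc2, had 793, 1236 and 1427 counts in DMSO, 859, 1103 and 1243 in Crizotinib, 991, 1035 and 1244 in PD173074 and 552, 351 and 426 in Combo. It followed in size of change (log2 fold change -1.51, SE 0.25, edgeR adjusted p = 0.00384). At the other end, Zfp622, a factor of late cytoplasmic maturation, had 992, 598 and 638 counts in DMSO, 1121, 595 and 609 in Crizotinib, 1178, 523 and 774 in PD173074 and 1724, 754 and 981 in Combo. It was higher in Combo in each line and called with the block alone (log2 fold change 0.43, SE 0.38, edgeR adjusted p = 0.514, and 0.0100 with the block). Taf1c, of the polymerase I promoter complex, had 88, 271 and 211 counts in DMSO, 129, 284 and 187 in Crizotinib, 154, 278 and 230 in PD173074 and 198, 286 and 303 in Combo, and was likewise called higher with the block alone, although level in A1129 (log2 fold change 0.40, SE 0.45, edgeR adjusted p = 0.621, and 0.0447 with the block). The processome gene Rrp36 had 400, 342 and 349 counts in DMSO, 414, 349 and 284 in Crizotinib, 537, 328 and 362 in PD173074 and 685, 307 and 380 in Combo, with no difference called in either fit (log2 fold change 0.14, SE 0.27, edgeR adjusted p = 0.786, and 0.502 with the block).

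Of the 49 factors, 21 share exon sequence with another annotated gene in the GENCODE annotation, such as Bysl with Ccnd3, Gnl3 with Pbrm1, Nop56 with Idh3b and several small nucleolar RNAs, and Dkc1 with Mpp1. They are Polr1a, Mybbp1a, Ncl, Nop56, Nop58, Rrp9, Dkc1, Nhp2, Nop14, Wdr43, Heatr1, Imp4, Bysl, Tsr1, Wdr12, Bop1, Pes1, Rrp1b, Noc2l, Gnl3 and Ppan. The strand setting of the counting is not given in the sources used here, so reads in such stretches cannot be assigned with certainty. Of these 21 factors 13 were called lower in Combo without the block (median -1.06), and of the 28 with no such overlap 13 were called (median -0.81). Over all tested genes 8.28% were called lower in that fit.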

How the data were processed

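The authors deposited unnormalised read counts for each Ensembl gene in 12 libraries of total RNA from tumourspheres sequenced on a NextSeq500. The study's methods name STAR and mouse genome build mm10, and the submitters' processing notes also list bcl2fastq and HTSeq. Versions, annotation release and strand setting are not given in the sources used here. Treatment and cell line came from the sample titles.

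The filterByExpr function of edgeR 4.0.16 (R 4.3.3) removed low genes (minimum count 10, minimum total 15). TMM factors scaled the libraries, and the quasi-likelihood F test was run in a single fit of treatment over 12 libraries (8 residual degrees of freedom) with no block, because the study's methods state an unpaired analysis. P-values were adjusted by Benjamini-Hochberg over 13836 genes, threshold 0.05. The cell line as a block was the planned paired alternative (6 residual degrees of freedom). Pairing comes from the line in the labels. Deviations from the treatment means correlated by 0.766 to 0.962 in 18 pairs of libraries of the same line. In 36 pairs of different lines the correlation was -0.663 to -0.0472. The deviations of the lines add to 0 within a treatment, so the negative range follows from the positive one and is no separate evidence. Nothing says that libraries of a line came from separate cultures, and p-values without the block measure the spread between lines. DESeq2 1.42.0, other scalings, no filter, only the libraries compared and leaving out each line were alternatives. The tests were checked on simulated data. Reads had no molecular identifiers, so amplified copies of a molecule could not be removed from the counts. The depth of 13031492 to 17750476 counts per library left every factor well above the filter.

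Gene coordinates on mm10 and exon lengths came from GENCODE, which held 55394 of the 55573 genes. Promoters came from RefSeq on GRCm38.p6, in windows of 300 bases. The 49 factors, the other lists and the alternatives were chosen with earlier results of these data known. Any of the 49 may be named, and values in every library are given for 18 factors chosen by name across the roles, the 5 lowest and the 3 highest in Combo against DMSO, and, of the other lists, Myc with the 3 lowest and 3 highest further biogenesis genes. Nop10, Imp3, Mxd1, Mnt, Mycl, Hprt and the single markers were added after their values were seen. Tables and figures were made in Python 3.11.15 (matplotlib 3.10.9, numpy 2.4.6, pandas 2.3.3).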

Additional observations from a re-analysis of the deposited data

Results flagged for a closer look

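With libraries blocked by line, edgeR called 35 of the 49 factors lower in Combo than the added Crizotinib and PD173074 changes, by a test of the departure itself, beside 10.7% of all tested genes. Without the block edgeR called 0, beside 0.911% of tested genes called lower, and DESeq2 called 2. In that edgeR fit 21 factors had an unadjusted p under 0.05, beside 1250 of the 13836 tested genes. Without A1129 and without A1471 the blocked fit called 3 and 1 factors, each from fewer libraries, and the calls over all genes in these fits are not given here.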

How the results depend on the processing

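The limits are 3 lines with a single library per treatment and marked differences between lines. Factors called lower in Combo against DMSO numbered 26, and 47 with the cell line as a replicate block, which lost none and added 21 (all genes called: 1990 and 7578). DESeq2 gave 31 (2948 genes), DESeq2 with the block 47, no filter 19 (1160 genes) and a fit of only the libraries compared 2 (594 genes), a fit with fewer samples. Leaving out each line gave 0 to 33 (120.0 to 2021 genes), and with the block 47, 44 and 42 without A1005, A1129 and A1471. Total counts alone gave 22, losing Polr1e, Rrn3, Mybbp1a and Nop2. Against Crizotinib the count of 18 became 46 with the block, 28 with DESeq2, 46 with both and 3 with only the libraries compared, 0 to 28 without a line and 47, 43 and 34 with the block. Against PD173074 the count of 15 became 45 with the block, 30 with DESeq2, 45 with both, 7 with no filter and 0 with only the libraries compared, 0 to 19 without a line and 47, 35 and 39 with the block. For the departure, 0 became 35 with the block, 2 with DESeq2, 40 with both, and 36, 3 and 1 without each line with the block. The departure needs all treatments, so no fit of only the libraries compared was made. Counts with either single inhibitor were 0 in every fit run. The median of -0.90 ranged from -1.11 to -0.70 and stayed below 0 in every alternative. Other scalings moved the median of all genes from 0.02 to 0.05 and 0.07, and that of the factors to -0.88 and -0.86. Only Polr1c and Ubtf changed sign. Leaving out each line without the block put Polr1c between -0.16 and 0.07 (0.0711 without A1129) and Ubtf between -0.12 and 0.12 (0.117 without A1129), and the block with a line left out gave 0.0712 for Polr1c without A1129 and -0.12 for Ubtf without A1471. The E-box share of 22.7% became 6.82% in the 100 bases before the start, a shorter window. Fits with both the block and a line left out, and DESeq2 with the block, were chosen after seeing the data. The block changed no call with either single inhibitor, and the cause of the other differences between fits was not tested.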
